A study of Mus musculus with 48 samples.

Results

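The A/J samples described here are the 3 RNA-seq libraries made from cast-immobilized left limbs of A/J mice, numbered 1, 2 and 5. They were chosen by their labels and set against the 21 libraries from immobilized limbs of 7 other inbred strains, out of 48 libraries in the series. All 24 libraries came from the tibial metaphysis, the flared region of the bone beneath the growth plate, with its marrow. Every mouse was male and 19 weeks old, and its left hindlimb had been held in a cast for 3 weeks. The groups were A/J with 3 mice and WSB/EiJ, PWK/PhJ and CAST/EiJ (derived from wild mice), NZO/HlLtJ, NOD/ShiLtJ, C57BL/6J and 129S1/SvImJ with 3 mice each, all inbred and with no transgene or induced mutation in the labels. Opposite, uncast limbs were not used. In A/J, 2 of the 3 uncast libraries held only 2335 and 50 counts, so a difference that A/J shows in any limb and a difference in its response to the cast cannot be told apart here.

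A/J is a laboratory strain known for several natural mutations. A retrotransposon inserted in its dysferlin gene Dysf disables repair of torn muscle membrane, its Hc gene yields no complement C5, its Naip5 allele permits growth of Legionella in macrophages, and its albino and brown coat comes from Tyr and Tyrp1. The metaphysis holds bone-forming osteoblasts, resorbing osteoclasts, cartilage remnants, vessels and haematopoietic marrow rich in neutrophils, red cell precursors and B cell precursors. Disuse is known to shift this tissue toward resorption.

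Total counts were 6564137, 7004207 and 6324604 in A/J replicates 1, 2 and 5, against 5253408 to 14744056 with a median of 7650436 in the other 21 libraries. Values below are CPM, read counts scaled to the library total, after TMM scaling, so they compare 1 gene between libraries and not 1 gene with another. Log2 differences are A/J minus the unweighted mean of the other 7 strains. Their standard error (SE) was derived from the test, as the absolute log2 difference divided by the square root of the F statistic. Pearson correlations of log2 CPM over the tested genes were 0.954 to 0.956 between A/J libraries. Their median with the libraries of another strain, over 9 pairs each, was highest for C57BL/6J at 0.929 and NZO/HlLtJ at 0.927, and lowest for CAST/EiJ at 0.869 and PWK/PhJ at 0.857. The A/J libraries held the markers of the labelled tissue, with Col1a1 (bone), Ctsk (osteoclasts), Mpo (myeloid cells), Hbb-bs (red cells), Cd79a (B cells), Adipoq (fat) and Acta1 (skeletal muscle) all detected in all 3. In bulk tissue, fewer cells of a type and less RNA per cell cannot be told apart.

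A/J differed from the other strains in 2117 of 15478 genes tested, which is 13.7%, by edgeR's quasi-likelihood test with Benjamini-Hochberg adjustment at an FDR of 0.05. Of these, 1427 were higher in A/J (9.22%) and 690 lower (4.46%), while the median log2 difference over all tested genes was -0.02. The difference was at least 2-fold in 879 genes (5.68%), 592 higher (3.82%) and 287 lower (1.85%). All 3 A/J libraries lay above all 21 others in 168 genes (1.09%) and below them in 81 (0.523%). A total of 98 tested genes passed the filter on low counts only through the A/J libraries, and 29 of them were called higher, which their selection favours. In 124 of the genes called higher another strain had no counts at all, and in 12 of those called lower A/J had none.

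The count of called genes depends on single A/J libraries and on what is taken as error. It was 1138 without A/J replicate 1, 1695 without replicate 2 and 1354 without replicate 5, and 937 with the level of the osteoblast list as a covariate. The test measures A/J against the spread among mice within strains. When the 21 other libraries were pooled into 1 group, so that differences among the 7 strains counted as error, 186 genes were called, and 185 of them were among the 2117. That model called no member of any gene list described below except Dysf, H2-T23 and Vpreb1. Of the 24 genes named by rule for the lack of overlap it called 16, and not Stfa2l1, Ighv1-66, Ugt8a, Chil5, Ly6g, AI661453, Rcor2 and Uchl1.

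Set against each strain singly, A/J differed least from C57BL/6J, with 591 genes called (3.82% of those tested), 306 of them higher in A/J (1.98%) and 285 lower (1.84%). Against WSB/EiJ 825 were called (5.33%), 435 higher (2.81%) and 390 lower (2.52%), and against NZO/HlLtJ 987 (6.38%), 497 higher (3.21%) and 490 lower (3.17%). Against 129S1/SvImJ 2091 were called (13.5%), of which 1205 were higher in A/J (7.79%) and 886 lower (5.72%). The 3 remaining strains were farther off. CAST/EiJ gave 3079 calls (19.9%), 1457 higher in A/J (9.41%) and 1622 lower (10.5%), PWK/PhJ gave 3229 (20.9%), 1752 higher (11.3%) and 1477 lower (9.54%), and NOD/ShiLtJ gave 3263 (21.1%), 1633 higher (10.6%) and 1630 lower (10.5%). All these comparisons share the same 3 A/J libraries.

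**Figure D1:**
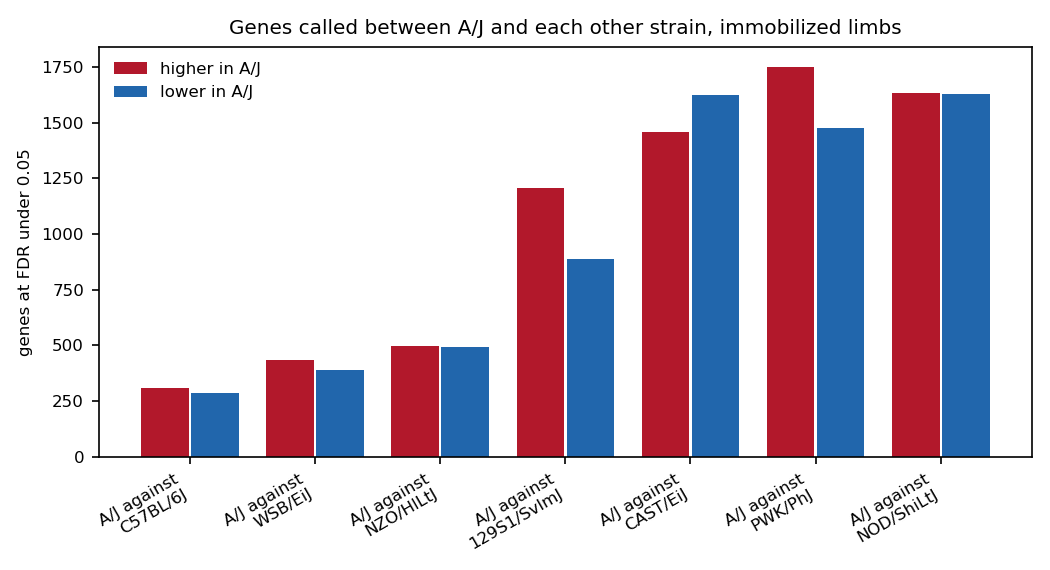
Number of genes called higher (red) or lower (blue) in immobilized A/J limbs against each other strain, at an FDR under 0.05. The bars are lowest for C57BL/6J, with 306 higher and 285 lower, and reach 1752 higher in A/J against PWK/PhJ.

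The largest difference among the genes named by rule was in Slc28a1, which encodes a sodium-coupled transporter that takes up pyrimidine nucleosides. It had 24.8, 25.9 and 46.5 CPM in A/J replicates 1, 2 and 5, against a lowest value of 0, a median of 0.256 and a highest of 0.761 CPM in the other 21 libraries. The gene was thus near the limit of detection in every strain but A/J, and the groups were far apart. The log2 difference was 7.10 ± 0.33 (SE). Slc28a1 passed the filter on low counts only through its A/J libraries, so its place among the genes tested already rests on its high level there and no p-value is given. Slc28a1 lies at chr7:81114799-81170416 on the plus strand (GRCm38), and 1 of its 14 tested neighbours within 500000 bases was also called, higher. The share called among all tested genes was 13.7%.

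By fitted log2 difference, genes of the stefin A cluster filled the next 5 places. For BC117090 and Stfa2l1 that fit includes PWK/PhJ, which had no counts, so their places are uncertain. The A/J mean of Stfa2l1 was 5.32 times the mean of the 7 strain means, against 10.5 times for Ovgp1, which was placed after it. Stefin A proteins are small intracellular inhibitors of cysteine proteases such as cathepsins, and in mice their genes form a local array of near copies expressed in myeloid cells. The 7 measured members lie within 299 kb at chr16:36156811-36455392 (GRCm38). The stretches before the start sites are shown for the 4 that had a promoter in the RefSeq set used here. Of these 4 genes, Stfa2l1, Stfa2 and Stfa3 had their highest level in A/J and Stfa1 did not. That set held no promoter for BC100530, BC117090 and Gm5483, which were also highest in A/J. The sequences are the 100 bases before each RefSeq start (GRCm38.p6, which is C57BL/6J sequence and not A/J), with the motif TTTAAAA in capitals.
Stfa2l1: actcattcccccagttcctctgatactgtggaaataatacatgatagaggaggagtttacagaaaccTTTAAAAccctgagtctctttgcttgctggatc
Stfa1: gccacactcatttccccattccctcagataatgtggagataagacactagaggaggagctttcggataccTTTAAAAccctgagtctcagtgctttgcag
Stfa2: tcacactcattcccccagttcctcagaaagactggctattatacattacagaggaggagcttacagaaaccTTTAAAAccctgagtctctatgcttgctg
Stfa3: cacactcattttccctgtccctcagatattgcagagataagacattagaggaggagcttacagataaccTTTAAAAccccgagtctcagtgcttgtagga
Stfa2l1 and Stfa1 are read from the plus strand, at chr16:36156711-36156810 and chr16:36277048-36277147, and Stfa2 and Stfa3 from the minus strand, at chr16:36408364-36408463 and chr16:36455393-36455492. Over 250 bases before the start, these promoters shared 80.2% to 89.4% of aligned bases. TTTAAAA, searched on both strands in the 100 bases before the start, was found in 732 of 27025 RefSeq mouse promoters (2.71%).

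Stfa2 had 389, 200 and 99.4 CPM in A/J, against 0.15, 7.75 and 62.4 CPM as the lowest, median and highest of the other libraries. Stfa3 had 259, 166 and 66.6 CPM in A/J, against 0.133, 4.15 and 48.0 CPM. All 3 A/J libraries lay above all others for both, with log2 differences of 5.07 ± 0.47 for Stfa2 and 4.88 ± 0.53 for Stfa3. Against C57BL/6J alone neither was called (log2 differences 2.57 and 2.78, adjusted p = 0.0838 and 0.106, edgeR). Stfa3 was not called against WSB/EiJ either (adjusted p = 0.0606, edgeR). Both differences were largest against PWK/PhJ, at 8.92 for Stfa2 and 8.98 for Stfa3. BC100530, a stefin A gene of the same cluster, had 719, 441 and 193 CPM in A/J, against 0, 26.1 and 175 CPM. The log2 difference of BC100530 was 4.84 ± 0.46, and it was not called against WSB/EiJ alone (adjusted p = 0.110, edgeR). Replicate 1 was the highest and replicate 5 the lowest A/J library for each of these genes, and without replicate 1 the log2 difference of Stfa2 was 4.45.

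Stfa2l1 and BC117090 were also above all other libraries, and PWK/PhJ had no counts for either, so for them the ratio of means is given. Stfa2l1 had 277, 160 and 135 CPM in A/J, against 0, 22.6 and 108 CPM, and its A/J mean was 5.32 times the mean of the 7 strain means. BC117090 had 23.1, 21.7 and 14.4 CPM in A/J, against 0, 0.411 and 4.25 CPM, a ratio of 19.1. Gm5483, named because it completes the cluster, was called too, with 254, 138 and 78.3 CPM in A/J, against 0, 18.3 and 79.2 CPM. Against C57BL/6J alone Stfa2l1 and Gm5483 were not called (adjusted p = 0.372 and 0.265, edgeR). The same held against WSB/EiJ (adjusted p = 0.0968 and 0.0942, edgeR). Stfa1 stood apart from the rest of the cluster. It had 1 count in the 3 A/J libraries, against strain means of 62.8 CPM in WSB/EiJ and 27.1 CPM in C57BL/6J. It was at 0 in 129S1/SvImJ, NOD/ShiLtJ and NZO/HlLtJ, so its difference from the mean of 7 strains was hardly estimated. The fit gave -3.07 ± 52.1 and no call (adjusted p = 0.989, edgeR). Set against single strains, Stfa1 was called lower in A/J than in C57BL/6J, CAST/EiJ and WSB/EiJ (adjusted p = 0.000168, 0.0194 and 3.38e-05, edgeR). Reads can be split among near-identical copies, and A/J reads were assigned against a C57BL/6J genome, so the level of a single member is uncertain. CAST/EiJ and PWK/PhJ had the lowest Stfa2, as the plot of single genes by strain shows.

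**Figure D2:**
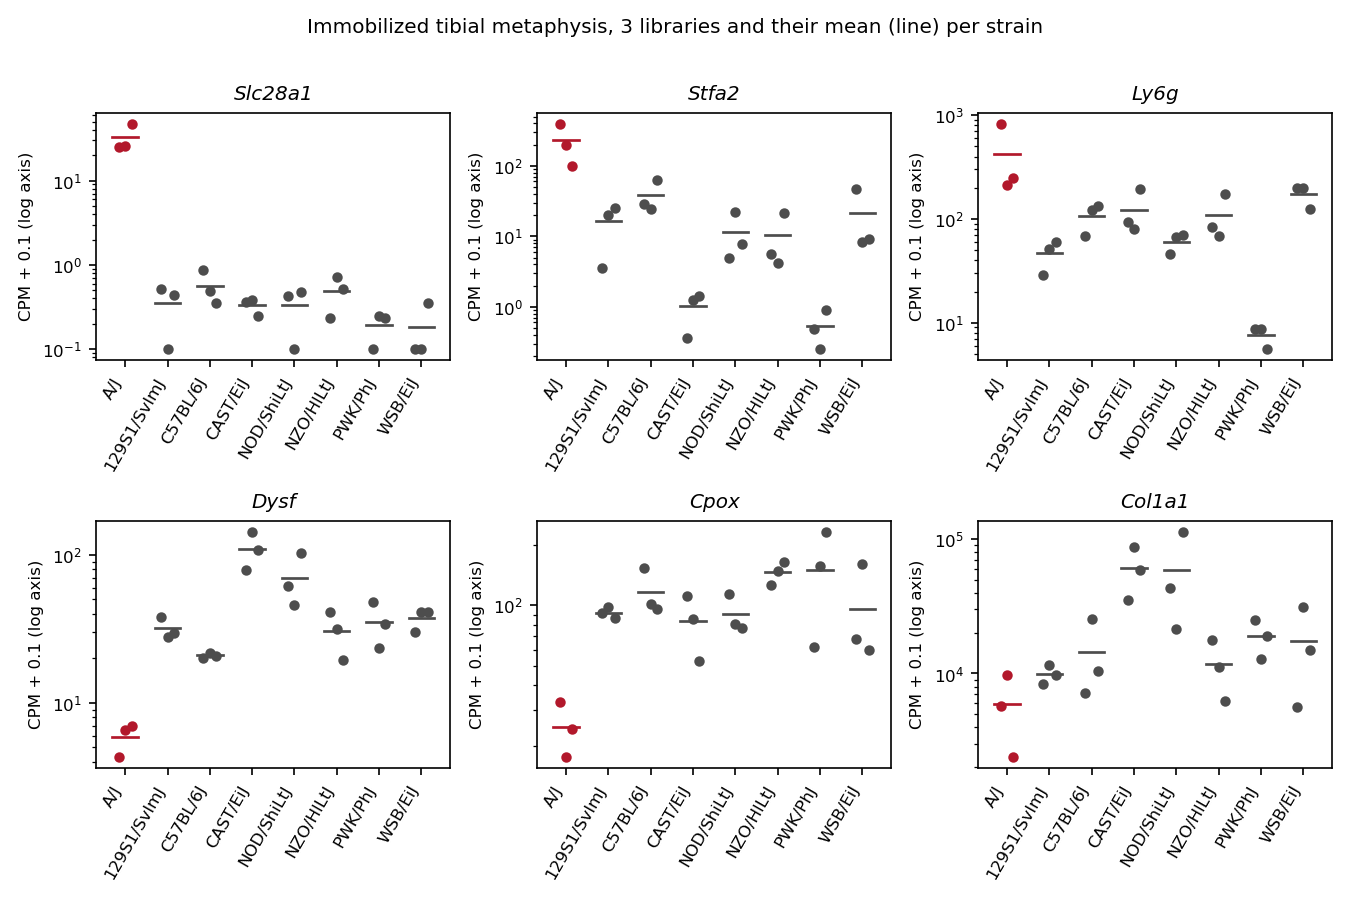
CPM plus 0.1 on a log axis for 6 genes in the 3 immobilized libraries of each strain (points) with the strain mean (line), A/J in red. Slc28a1, Stfa2 and Ly6g were highest in A/J, Dysf and Cpox lowest, and the A/J values of Col1a1, 2380.3 to 9804 CPM, overlapped those of other strains.

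Ovgp1 and Chil5, among the remaining genes above all others, are neighbours on chromosome 3 and belong to the chitinase-like glycosyl hydrolase family. Ovgp1, oviductal glycoprotein, had 68.6, 40.9 and 53.0 CPM in A/J, against 0.531, 2.82 and 21.4 CPM, and a log2 difference of 4.05 ± 0.22 (adjusted p = 5.54e-11, edgeR). Chil5 had 19.4, 12.9 and 12.1 CPM in A/J, against 0, 2.70 and 9.27 CPM, and a log2 difference of 3.02 ± 0.32. They lie at chr3:105973711-105987423 and chr3:106016919-106032814, and Ovgp1 was higher than in each of the 7 strains while Chil5 was higher than in 6.

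Btnl2, a butyrophilin-like protein that dampens T cell activation, had 26.9, 19.6 and 14.2 CPM in A/J, against 0.125, 1.84 and 6.31 CPM. It was higher than in each of the 7 strains, with a log2 difference of 3.39 ± 0.32, and lies in the MHC region at chr17:34354822-34369495. Ugt8a, the enzyme that makes galactosylceramide, had 37.6, 50.6 and 36.9 CPM in A/J, against 0.897, 2.47 and 32.4 CPM, and CAST/EiJ came nearest with a mean of 23.6 CPM. Ly6g, the surface protein that marks mouse neutrophils, had 818, 212 and 249 CPM in A/J, against 5.45, 69.5 and 200 CPM. The gap above the other libraries was narrow in replicates 2 and 5 and wide in replicate 1. The log2 difference of Ly6g was 2.70 ± 0.29, and 1.81 without replicate 1. Ighv1-66, an immunoglobulin heavy chain variable segment, had only 3.18, 4.45 and 4.21 CPM in A/J, against 0, 0.267 and 3.02 CPM. Set against single strains, Ighv1-66 was called only against CAST/EiJ, which had no counts for it. For the other strains the adjusted p ran from 0.0630 to 0.304 (edgeR). Segments of this family are near copies of each other, and the call for Ighv1-66 was lost with an osteoblast score as covariate (adjusted p = 0.107, edgeR), with the replicate number as a block (0.0721) and without the wild-derived strains.

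**Figure D3:**
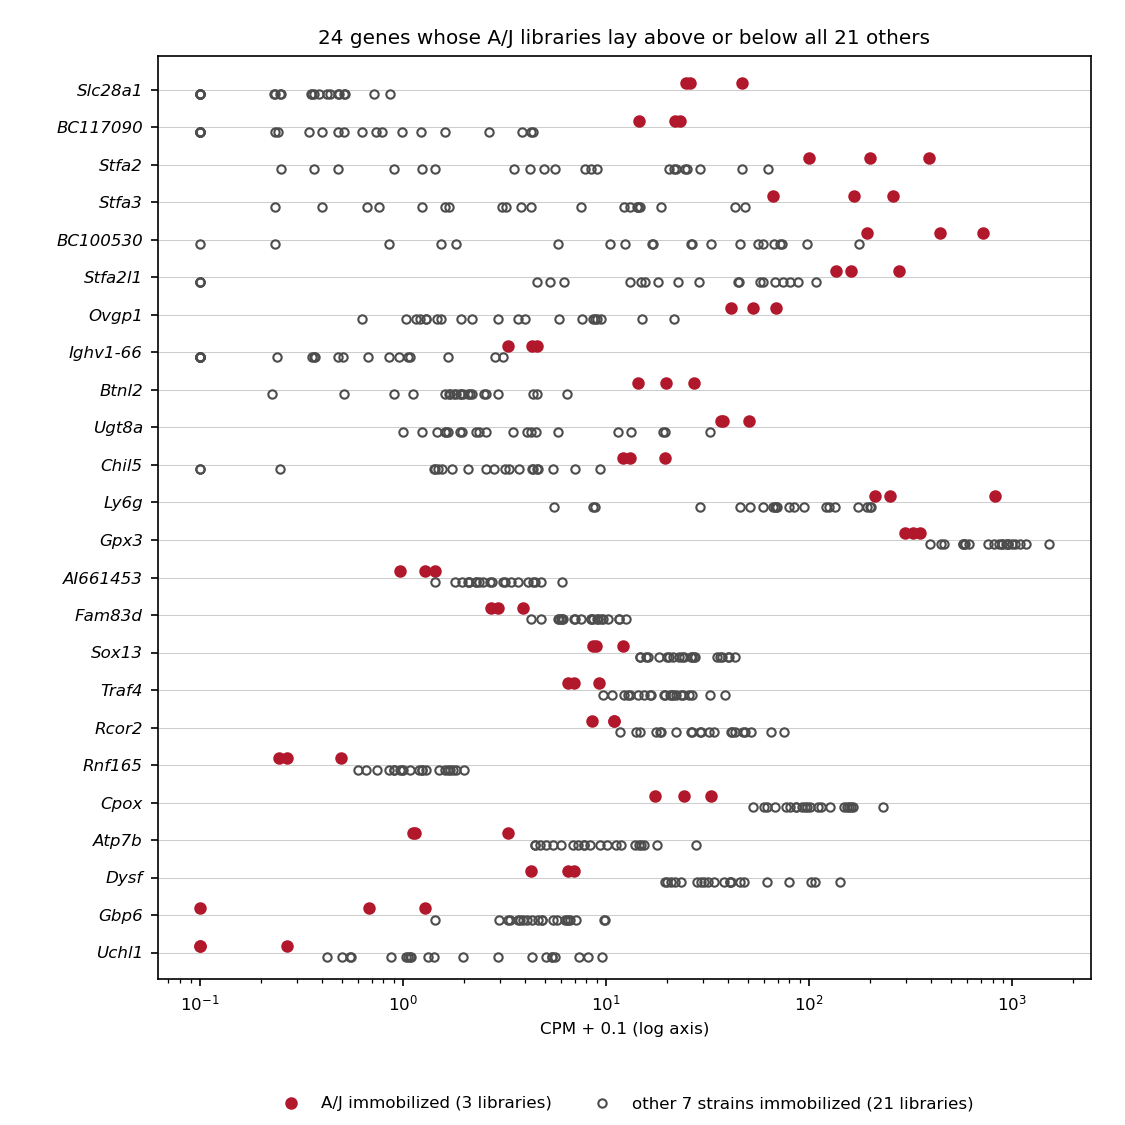
CPM plus 0.1 on a log axis for the 12 largest and 12 smallest log2 differences among called genes whose 3 A/J libraries (red) lay above or below all 21 others (grey), ordered by log2 difference. The gap is widest for Slc28a1, at 24.8 to 46.5 CPM in A/J against at most 0.761 CPM elsewhere.

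Among genes lower in A/J, Dysf carried the published allele. Dysferlin had 4.18, 6.41 and 6.83 CPM in A/J, against 19.3, 37.9 and 142 CPM as the lowest, median and highest of the others. No A/J library came near any other, and A/J was lower than each of the 7 strains, whose means ran up to 110 CPM in CAST/EiJ. The log2 difference of Dysf was -2.81 ± 0.31 (adjusted p = 2.28e-06, edgeR). Acta1, skeletal actin, had 41.1, 44.6 and 143 CPM in A/J, against 0.73, 130 and 3079 CPM, and an adjusted p of 0.674 (edgeR). The mean log2 CPM of the muscle list was 4.14, 3.90 and 6.15 in A/J, against 0.44, 5.10 and 9.11. The cause of the lower Dysf level was not tested.

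Cpox, which carries out a late step of haem synthesis, had 32.8, 17.4 and 24.1 CPM in A/J, against 52.7, 97.5 and 231 CPM, with a log2 difference of -2.13 ± 0.36. Atp7b, the copper-exporting ATPase, had 3.18, 1.05 and 1.02 CPM in A/J, against 4.35, 8.24 and 27.7 CPM, with a log2 difference of -2.46 ± 0.48. Gbp6, an interferon-inducible GTPase, had 0, 1.18 and 0.581 CPM in A/J, against 1.34, 4.74 and 9.77 CPM. Each of these 3 was lower than in all 7 other strains. The log2 difference of Atp7b was -3.18 without replicate 1, and that of Gbp6 was -2.98 ± 0.57 with all libraries and -3.95 without replicate 2. Of 10 measured guanylate-binding protein genes, a family picked after its values were seen, 2 were called higher and 1, Gbp6, lower. Among all tested genes 9.22% were called higher and 4.46% lower. The part of read assignment among these genes was not tested. Uchl1, a deubiquitinase abundant in neurons, had 1 count in the A/J libraries together, against 617 counts in the other 21, a depth-adjusted ratio of 0.0144 (95% exact interval 0.000364 to 0.0805, counting error only). That ratio pools the libraries and does not weight strains equally. NOD/ShiLtJ and WSB/EiJ were also low, at means of 0.699 and 0.717 CPM. Against these strains singly Uchl1 was not called (adjusted p = 0.0570 and 0.0966, edgeR).

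Gpx3, the secreted glutathione peroxidase, had 297, 352 and 323 CPM in A/J, against 395, 864 and 1514 CPM and a log2 difference of -1.30 ± 0.30. Its call was lost with an osteoblast score as covariate (adjusted p = 0.0722, edgeR). Gpx3 was not called against C57BL/6J or WSB/EiJ alone (adjusted p = 0.0510 and 0.292, edgeR). The transcription factor Sox13 had 8.86, 8.50 and 12.1 CPM in A/J, against 14.5, 24.1 and 43.0 CPM, and the corepressor Rcor2 had 10.9, 10.9 and 8.43 CPM, against 11.6, 29.3 and 75.4 CPM. Traf4, an adaptor of TNF receptor family signalling, had 6.86, 9.15 and 6.39 CPM in A/J, against 9.52, 19.5 and 38.4 CPM. Fam83d, a mitotic spindle protein, had 2.84, 3.79 and 2.62 CPM, against 4.17, 8.32 and 12.5 CPM. In all 4 the highest A/J library stayed below the lowest other library, with log2 differences from -1.60 for Rcor2 to -1.33 for Fam83d. Against C57BL/6J alone Rcor2, Sox13 and Traf4 were not called (adjusted p = 0.297, 0.117 and 0.117, edgeR). Against 129S1/SvImJ alone Rcor2 and Fam83d were not called (adjusted p = 0.0758 and 0.0710, edgeR). Rnf165 and AI661453, at means of 0.235 and 1.13 CPM in A/J, completed the 12, and both calls were lost without A/J replicate 5 (adjusted p = 0.0593 and 0.0802, edgeR); Rnf165 was also lost without replicate 1 (0.0562), and its log2 difference of -2.12 was -2.70 without replicate 2.

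A total of 24 genes (0.155% of those tested) differed from each of the 7 strains in the same direction, 12 higher in A/J (0.0775%) and 12 lower (0.0775%). Slc28a1 and Gm7658, both among the 12 higher, passed the filter on low counts only through A/J, which favours their place here. Besides Slc28a1, BC117090, Ovgp1, Btnl2, Cpox, Atp7b, Dysf and Gbp6, the values of 4 more are given, picked out after they were seen. Noct, a rhythmic nocturnin that removes phosphate from NADPH, had 529, 416 and 541 CPM in A/J, against 132, 209 and 383 CPM, with a log2 difference of 1.18 ± 0.10. L1cam, a cell adhesion molecule, had 53.0, 36.2 and 54.5 CPM, against 3.16, 9.10 and 32.1 CPM. Cmah, the enzyme that makes N-glycolylneuraminic acid, had 137, 133 and 96.5 CPM, against 29.5, 47.9 and 74.1 CPM. In the other direction Prcp, a lysosomal carboxypeptidase, had 43.5, 52.1 and 50.6 CPM, against 63.5, 89.6 and 139 CPM. The A/J values of each of these genes did not overlap the other 21.

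The genes with published A/J alleles did not move as a set. Of 5 tested, 2 were called higher and 1, Dysf, lower. Naip5, the cytosolic sensor of bacterial flagellin, had 20.1, 23.1 and 39.7 CPM in A/J, against 2.65, 16.7 and 49.6 CPM, with a log2 difference of 0.90 ± 0.21 that was not called without replicate 5 (adjusted p = 0.174, edgeR). Hc had 4.18, 2.09 and 0.291 CPM, against 0, 0.137 and 1.63 CPM, and was not called without replicate 1 (adjusted p = 0.148, edgeR); like Slc28a1 it passed the filter only through A/J. Cs, citrate synthase, had 223, 161 and 170 CPM, against 130, 190 and 284 CPM, and Cdh23, a cadherin of the inner ear, had 11.04, 10.7 and 9.88 CPM, against 4.20, 8.11 and 27.6 CPM. Neither passed the test (adjusted p = 0.900 and 0.653, edgeR). Tyr and Tyrp1, the pigment enzymes, had 9 and 0 counts in A/J and were too low to be tested.

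The neutrophil list held more genes called higher than any other list. Neutrophils are the most abundant granulocytes of marrow and store antimicrobial proteins in granules made at successive stages. Of 18 measured members 13 were called higher and 0 lower, against a background of 9.22% higher and 4.46% lower among all tested genes, and the list's median log2 difference was 1.13. The same background shares apply to every list described below. Lcn2, which withholds iron from bacteria, had 5808, 2896 and 2212 CPM in A/J, against 354, 1220.2 and 3583 CPM, and a log2 difference of 1.47 ± 0.28. S100a8, a subunit of calprotectin, had 17909.5, 11860.1 and 7450.0 CPM, against 1529, 4509 and 12910.5 CPM, and a log2 difference of 1.38 ± 0.35. Replicate 1 stood highest and the A/J ranges overlapped those of other strains. Chil3, a chitinase-like granule protein, was called at a log2 difference of 3.17 ± 0.38, but NZO/HlLtJ averaged 0.571 CPM and PWK/PhJ had no counts. Its A/J mean was 0.825 times the mean of the 7 strain means, and its values were 843, 643 and 302 CPM, against 0, 739 and 2367 CPM. Mpo, made early in the lineage, had 3841, 1712 and 1905 CPM, against 555, 1562 and 3453 CPM, and was not called (adjusted p = 0.172, edgeR).

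The neutrophil calls depended on A/J replicate 1. Without it 2 members, Ly6g and Chil3, were called higher, while 13 were called without replicate 2 and 13 without replicate 5. The mean log2 CPM of the list was 10.97, 9.90 and 9.84 in A/J, against a lowest of 7.40, a median of 9.17 and a highest of 10.31 in the other libraries. Replicate 1 was thus above all of them and the other A/J libraries within their range. With the osteoblast score as covariate 3 members were called.

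Genes of the NLR inflammasome, the cytosolic sensors and caspases that trigger pyroptosis, were higher with less dependence on a single library. Of 15 measured, 9 were called higher and 0 lower, with a median log2 difference of 0.63, and 7 were called without any given A/J replicate. Naip6, a sensor of bacterial flagellin, had 21.4, 28.5 and 33.3 CPM in A/J, against 0.379, 11.3 and 26.1 CPM, with a log2 difference of 1.64 ± 0.24. Nlrc4, the adaptor that NAIP proteins engage, had 12.4, 16.9 and 17.6 CPM, against 1.70, 6.49 and 11.99 CPM, with a log2 difference of 1.31 ± 0.26. Every A/J library was above all others for Nlrc4. Naip2, which senses a bacterial secretion protein, had 60.7, 71.0 and 65.8 CPM, against 2.27, 36.4 and 72.6 CPM, and Nlrp1a had 6.86, 6.28 and 6.10 CPM, against 0.142, 3.71 and 11.8 CPM. Casp1, the caspase downstream, named after its values were seen, had 42.8, 44.7 and 35.7 CPM, against 9.48, 23.99 and 29.7 CPM. The list stood at 4.13, 4.34 and 4.39 mean log2 CPM in A/J, against 2.76, 3.72 and 4.25. Naip genes are near copies of each other, so reads can be shared among them. Neutrophil genes were higher in the same libraries, and their part in the inflammasome result was not tested; with the osteoblast score as covariate 2 of the 15 were called.

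**Figure D4:**
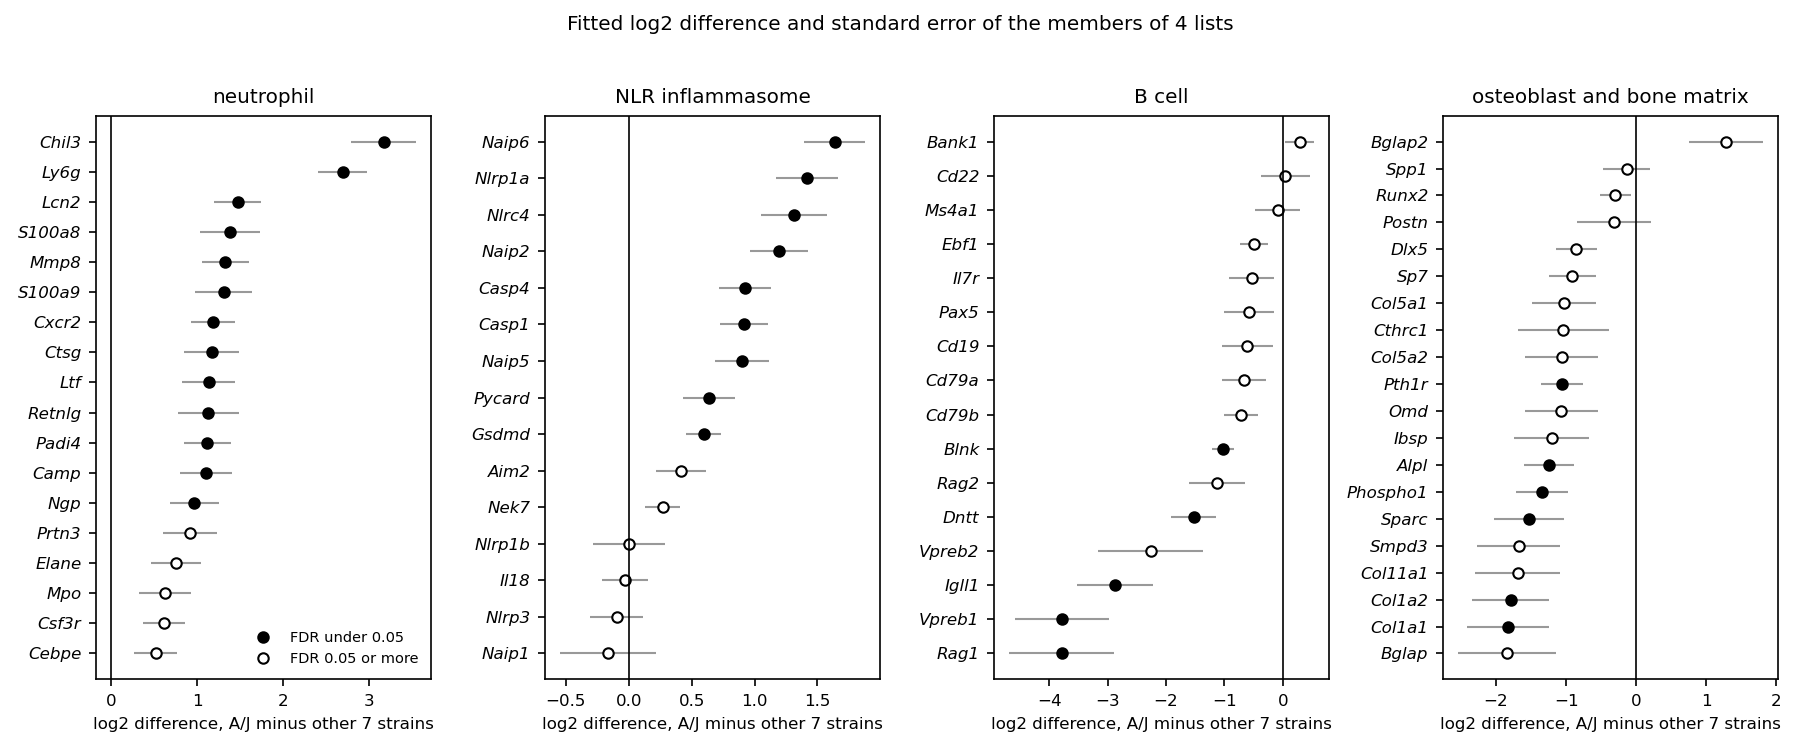
Fitted log2 difference, A/J minus the mean of the other 7 strains, with its standard error for the measured members of 4 lists. Filled points passed an FDR of 0.05: 13 of 18 neutrophil and 9 of 15 inflammasome genes to the right of 0, 5 of 16 B cell genes and 6 of the 20 osteoblast genes shown to the left.

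Tnf, the cytokine that drives osteoclast formation and inflammation, was the only called member of the inflammation list (1 of 13) and of the osteoclast regulators (1 of 9). It had 17.9, 8.37 and 12.5 CPM in A/J, against 1.51, 4.72 and 9.90 CPM, with a log2 difference of 1.36 ± 0.30 that was not called without replicate 1 (adjusted p = 0.0821, edgeR). Of 17 complement genes 3 were called higher and 1 lower, against 9.22% and 4.46% of all tested genes. C3, the central component, had 943, 527 and 497 CPM in A/J, against 171, 305 and 1005 CPM, and the anaphylatoxin receptor C5ar1 had 115, 56.6 and 60.5 CPM, against 19.1, 37.3 and 98.5 CPM; neither was called without replicate 1 (adjusted p = 0.283 and 0.402, edgeR). C6, of the membrane attack complex, was lower, with 2.84, 2.22 and 5.67 CPM, against 2.13, 7.82 and 54.1 CPM, and was not called without replicate 1 or 2 (adjusted p = 0.145 and 0.149, edgeR).

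Interferon-stimulated genes were split, with 3 of 17 called higher and 1 lower and a median log2 difference of 0.08. Among all tested genes 9.22% were called higher and 4.46% lower. Ifi44 had 2.84, 7.32 and 8.14 CPM in A/J, against 0.43, 1.89 and 5.50 CPM, with a log2 difference of 1.74 ± 0.31. Ifit2, which binds foreign RNA, had 23.4, 24.5 and 25.9 CPM, against 1.06, 19.9 and 26.7 CPM. The calls of Oas2 (higher) and Ifit3 (lower) were each lost without replicate 1 or replicate 2 (adjusted p from 0.101 to 0.221, edgeR), and that of Ifit3 also without replicate 5.

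Of 18 antigen presentation genes 5 were called lower and 2 higher. The split turned on single A/J libraries, with 2 lower and 1 higher without replicate 1, 2 lower and 3 higher without replicate 2, and 5 lower and 1 higher without replicate 5. H2-T23, the class I molecule Qa-1, had 16.1, 10.1 and 20.8 CPM in A/J, against 15.9, 96.4 and 148 CPM, with a log2 difference of -2.33 ± 0.22 (adjusted p = 2.89e-07, edgeR). It was lower than in 6 of the strains. The class II chain H2-Ab1 had 35.0, 67.0 and 106 CPM, against 91.6, 181 and 372 CPM, and the invariant chain Cd74 had 122, 219 and 354 CPM, against 281, 498 and 843 CPM. The Cd74 call was lost without replicate 1 or 2 (adjusted p = 0.0955 and 0.0506, edgeR). H2-Ea-ps, a class II alpha gene that several inbred strains do not express, had 21.6, 72.8 and 70.9 CPM in A/J, against 0, 0 and 189 CPM. It had no counts in 3 strains, was called higher than in 4 and lower than in 1, and its A/J mean was 0.835 times the mean of the strain means. MHC haplotypes differ between strains, and reads were assigned against a single haplotype.

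B cell genes called in A/J were lower, and most of them are known from B cell precursors. Of 16 measured, 5 were called lower and 0 higher, with a median log2 difference of -0.69. Rag1, the recombinase that assembles antigen receptors, had 1.51, 0 and 0 CPM in A/J, against 0.752, 6.13 and 30.7 CPM. Vpreb1 had 1.51, 0 and 0.291 CPM, against 1.504, 7.20 and 37.2 CPM, and Igll1 had 2.84, 0.392 and 0.872 CPM, against 1.38, 8.14 and 40.2 CPM; these encode the surrogate light chain of pre-B cells. The log2 differences were -3.79 ± 0.89 for Rag1, -3.78 ± 0.81 for Vpreb1 and -2.88 ± 0.65 for Igll1. Replicate 1 held all the Rag1 counts of A/J, and without it the difference of Igll1 was -3.93 and that of Vpreb1 -5.67, while without replicate 2 those of Rag1 and Vpreb1 were -3.15 and -3.14. Dntt, which adds bases at receptor joints, had 8.70, 3.14 and 6.10 CPM, against 4.89, 16.1 and 56.4 CPM, and was not called without replicate 2 (adjusted p = 0.0711, edgeR). The pan-B gene Cd79a had 18.1, 12.6 and 50.4 CPM, against 20.5, 41.7 and 111 CPM, and was called only without replicate 5 (adjusted p = 0.246 with all libraries and 0.0308 without it, edgeR). The list was called lower in 5, 4 and 8 members without A/J replicates 1, 2 and 5. Its mean log2 CPM was 2.20, 1.99 and 2.76 in A/J, against 2.49, 3.58 and 5.10.

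Osteoblast and bone matrix genes were lower in A/J, with a median log2 difference of -1.07 and 20 of 21 members negative, yet the calls were fragile. Of the 21, 7 were called lower and 0 higher. Col1a1, the chief chain of bone collagen, had 5679.7, 9804 and 2380.3 CPM in A/J, against 5649.5, 17603 and 112461 CPM, and a log2 difference of -1.83 ± 0.58 (adjusted p = 0.0411, edgeR). Its partner chain Col1a2 had 7868, 10742 and 3269 CPM, against 6608, 21519 and 135822 CPM. Sparc, which binds collagen, had 3573, 3959 and 1422 CPM, against 2506, 8341 and 36468 CPM. All 3 overlapped other strains, and CAST/EiJ and NOD/ShiLtJ held the highest levels of Col1a1. Of the 21 members, 0 were called without A/J replicate 1, 5 without replicate 2 and 0 without replicate 5, and 1 without CAST/EiJ and 2 without NOD/ShiLtJ. The list stood at 7.89, 8.18 and 6.81 mean log2 CPM in A/J, against 7.38, 8.62 and 10.77, while the muscle list, for tissue adhering to bone, stood at 4.14, 3.90 and 6.15, against 0.44, 5.10 and 9.11.

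Other bone lists held few calls. Of 17 Wnt targets and inhibitors 1 was called, Frzb, a secreted Wnt antagonist of cartilage and bone, with 2.84, 3.66 and 1.60 CPM in A/J, against 2.94, 12.5 and 37.1 CPM; its call was lost without replicate 1 or 5 (adjusted p = 0.0621 and 0.0783, edgeR). Of 17 growth plate genes 1 was called lower, Col11a2, although the median log2 difference was -1.62 and all 17 were negative. Col11a2 had 405, 378 and 252 CPM, against 309, 1103 and 7746 CPM, and was not called without any of the A/J replicates. None of 11 osteocyte genes was called, with Dmp1 at 218, 401 and 434 CPM in A/J, against 125, 378 and 1316 CPM (adjusted p = 0.896, edgeR). None of 16 osteoclast genes was called either. Ctsk, the collagen-degrading cathepsin, had 635, 3409 and 679 CPM, against 538, 1304 and 2630.1 CPM, so that replicate 2 was above every library of the other strains (log2 difference 0.09, adjusted p = 0.931, and -1.17 and 0.113 without replicate 2, edgeR).

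Erythroid genes stood lower, with a median log2 difference of -0.99, all 17 measured members negative and 2 called lower. Hba-a2, an alpha globin, had 1515, 182 and 740 CPM in A/J, against 923, 2227 and 39022 CPM, and Sptb, the red cell spectrin, had 206, 54.3 and 120 CPM, against 98.8, 304 and 738 CPM. Neither was called without replicate 2 (adjusted p = 0.0562 and 0.185, edgeR) or replicate 5, and 7 members were called without replicate 1, among them Hba-a2, whose difference of -2.08 was then -2.90. Replicate 2 held the least red cell RNA, with Hbb-bs at 24618, 3352 and 10963 CPM, against 11587, 17912 and 77329 CPM. The alpha globin genes are near copies, so their single levels are uncertain.

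**Figure D5:**
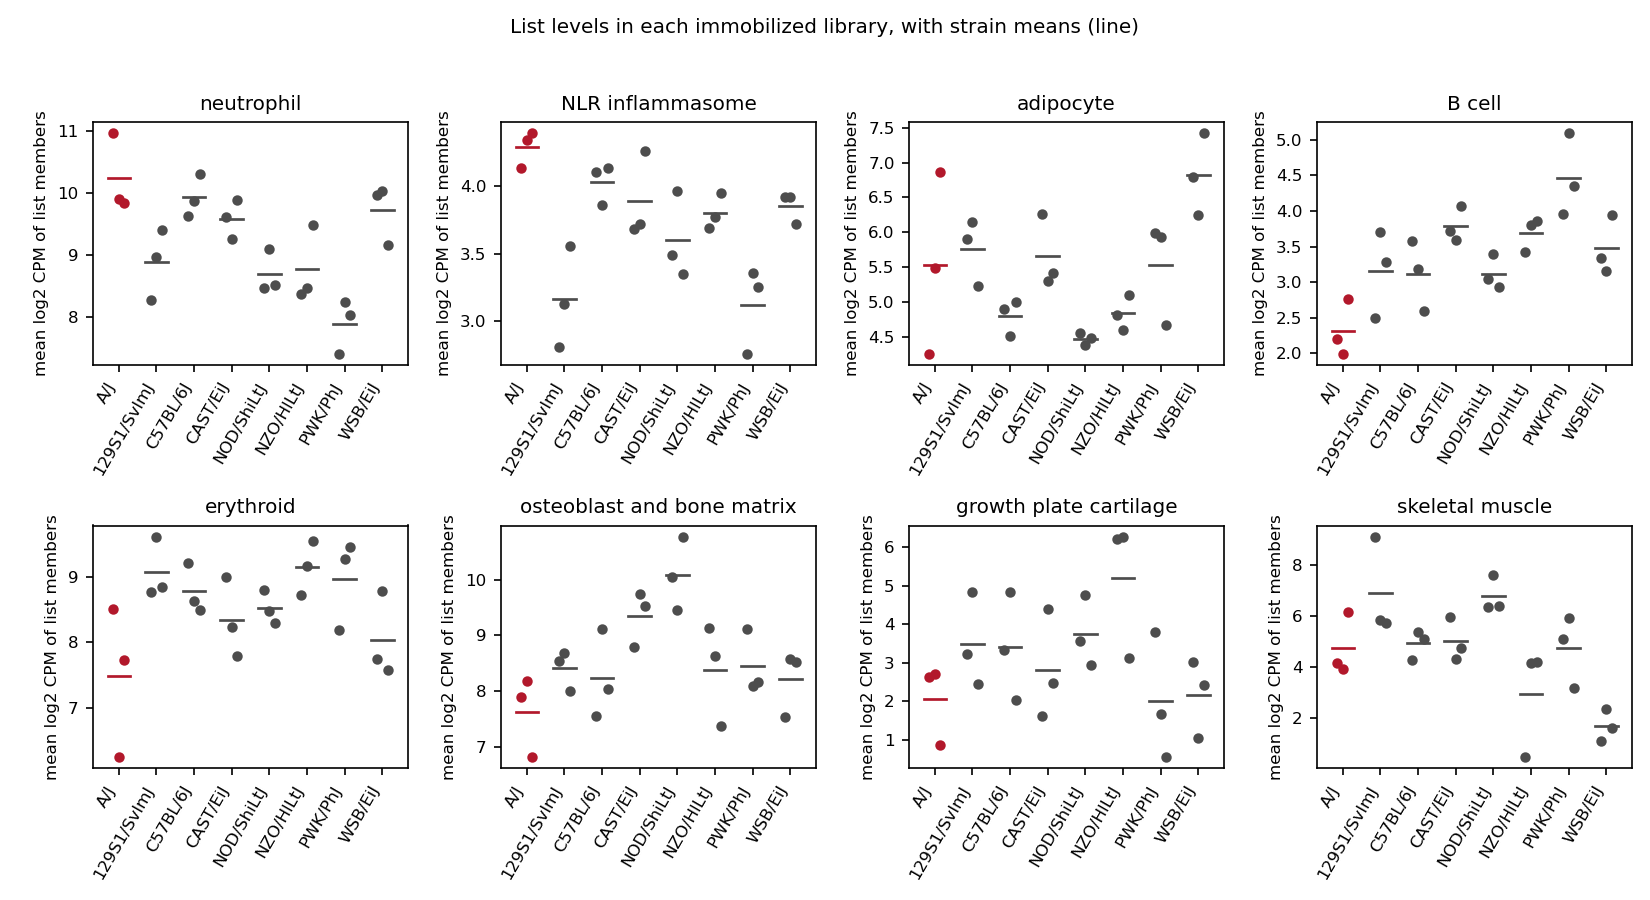
Mean log2 CPM of the measured members of 8 lists in each immobilized library (points) with strain means (lines), A/J in red. A/J was the highest strain for neutrophil and inflammasome genes and the lowest for B cell, erythroid and osteoblast genes, with replicate 1 at 10.97 for neutrophil and replicate 2 at 6.25 for erythroid genes.

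Fat and stromal lists were mixed. Of 17 adipocyte genes 2 were called higher, against 9.22% of all tested genes. Dgat2, which makes triglyceride, had 69.7, 55.2 and 56.4 CPM in A/J, against 15.2, 35.0 and 58.1 CPM, and Retn, resistin, had 1.34, 8.63 and 16.7 CPM, against 0.335, 1.70 and 35.4 CPM. The Retn call was lost without replicate 5 (adjusted p = 0.233, edgeR), and 6 members were called higher without replicate 1. Adipoq, the defining adipocyte hormone, had 33.6, 83.4 and 138 CPM, against 42.4, 95.8 and 351 CPM, and was not called. Pi16, a marker of fibroblast progenitors, was the only called gene of 15 for fibrous tissue, with 155, 81.6 and 98.8 CPM, against 2.53, 59.2 and 127 CPM and a log2 difference of 1.70 ± 0.21. Of 12 genes of CXCL12-abundant stroma only Hp, haptoglobin, was called, with 1510.0, 889 and 848 CPM, against 273, 543 and 1155 CPM, and not without replicate 1 (adjusted p = 0.186, edgeR).

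Among other immune cells, 2 of 15 T and NK cell genes were higher and 1 lower, against 9.22% higher and 4.46% lower among all tested genes. Klrb1c, the receptor NK1.1, had 1.67, 1.70 and 3.05 CPM in A/J, against 1.51, 6.27 and 13.8 CPM, with a log2 difference of -1.48 ± 0.32. Nkg7, of cytotoxic granules, and Cd3d, of the T cell receptor complex, were higher at 149, 66.3 and 50.9 CPM and at 50.8, 12.4 and 26.0 CPM, against medians of 40.8 and 12.8 CPM, and neither was called without replicate 1 (adjusted p = 0.247 and 0.463, edgeR). Of 15 macrophage genes 2 were called lower. The haem oxygenase Hmox1 had 86.6, 95.7 and 92.3 CPM, against 81.1, 174 and 384 CPM, and C1qb had 48.3, 62.6 and 71.9 CPM, against 69.8, 94.3 and 182 CPM; neither was called without replicate 1 (adjusted p = 0.0797 and 0.0981, edgeR).

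Of 17 genes of membrane repair and the dystrophin complex, Dysf was lower and 2 annexins that bind injured membrane were higher. Anxa1 had 4742, 4048 and 2322 CPM in A/J, against 645, 1382 and 3995 CPM, with a log2 difference of 1.31 ± 0.27, and Anxa2 had 997, 629 and 539.7 CPM, against 208, 424 and 726 CPM. Anxa2 was not called without replicate 1 (adjusted p = 0.381, edgeR). Anxa1 is also abundant in neutrophils, whose genes were higher in the same libraries, and their part in this result was not tested. Glutathione and xenobiotic genes were split, with 2 of 18 called higher and 3 lower, against 9.22% and 4.46% of all tested genes. Aldh1a1, a retinal dehydrogenase, had 32.1, 6.54 and 17.0 CPM, against 13.7, 51.1 and 93.2 CPM, and its call was lost without replicate 2 or 5; its log2 difference of -1.29 was -1.94 without replicate 1. Gstm5 had 21.6, 19.2 and 22.7 CPM, against 10.8, 37.0 and 90.0 CPM, with a log2 difference of -0.75 ± 0.14, while Gstm1 was higher at 276, 131 and 181 CPM, against 50.7, 106 and 220 CPM, though not called without replicate 1 (adjusted p = 0.232, edgeR). Aldh3a1 was called at 1.19 ± 0.28, yet its A/J mean was 1.11 times the mean of the strain means.

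No member was called among 20 skeletal muscle, 12 endothelial, 10 megakaryocyte, 16 cell cycle, 21 respiratory chain and 13 circadian clock genes. Their most abundant members were Myh4 (35.6, 25.4 and 486 CPM in A/J, against a median of 103 CPM), Pecam1 (93.3, 94.7 and 155 CPM, against 108 CPM), Ppbp (601, 367 and 612 CPM, against 619 CPM), Mki67 (1189, 957 and 1036 CPM, against 996 CPM), Atp5b (689, 643 and 571 CPM, against 725 CPM) and Tef (50.5, 79.8 and 127 CPM, against 88.2 CPM). Their adjusted p-values ran from 0.387 for Atp5b to 0.985 for Ppbp by edgeR. Of 12 muscle disuse genes only Foxo1, a driver of atrophy programmes, was called, lower at 11.9, 17.8 and 21.9 CPM, against 18.1, 24.2 and 40.2 CPM. Its adjusted p was 0.0436 with all libraries and 0.290 without replicate 1 (edgeR).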

How the data were processed

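RNA was measured in tibial metaphysis of immobilized limbs, 3 mice per strain. The authors deposited raw whole-number read counts per gene; featureCounts, DESeq2 and the mm10 build are named in the submitters' processing notes, without versions. For aligner, annotation and strand setting nothing was stated (not given in the sources used here); per the labels' protocols the kit marked strand. Of 32544 gene rows, 8272 had no count in the 24 libraries and 15478 passed edgeR's filterByExpr.

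Counts were scaled by TMM and fitted with 1 mean per strain in edgeR 4.0.16 (robust quasi-likelihood F test, R 4.3.3, limma 3.58.1). The contrast was A/J minus the unweighted mean of 7 strain means, with Benjamini-Hochberg adjustment over all tested genes at 0.05. Named genes were the 12 largest and 12 smallest log2 differences among called genes with all A/J values on 1 side of the other 21 and a mean of at least 1 CPM, leaving out unnamed and pseudogene symbols; up to 4 called members per list; genes with published A/J alleles; and 7 tissue markers. The values of 1 list member are not reported here, though counts of its list include it. The members and the lists were chosen with earlier results of these data known. List levels are mean log2 CPM with a prior count of 2. Symbols matched GENCODE M21 (GRCm38, the assembly of mm10) in 15014 of 15478 tested genes; promoters are from RefSeq.

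On simulated counts for this contrast (15184 genes tested), 59% of 100 genes changed 2-fold and 94% of 100 changed 4-fold were recovered. Of the calls in that simulation 3.77% were false. Few genes were changed in it, so this share holds for the simulated counts only and does not give the share of false calls in the measured data. How differences among the other strains affect false calls was not tested. The alternatives were RLE scaling, no count filter, DESeq2 1.42.0, muscle or osteoblast scores as covariates, the replicate number as a block, pooling the other strains, and leaving out strains or libraries. P-values measure the spread between mice of a strain.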

Additional observations from a re-analysis of the deposited data

How the results depend on the processing

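Of the 24 genes named by rule, 920 of 936 fits over 39 alternatives kept direction and call, 16 kept direction only, and 0 reversed. These genes were picked from the same libraries for passing the test without overlap, which favours this outcome. Slc28a1, which passed the filter on low counts only through A/J, is among them. RLE scaling called 2186 genes, no count filter 1821, a muscle score as covariate 2023, leaving out the 3 wild-derived strains 2006 and DESeq2 2808; an osteoblast score as covariate called 937 and pooling the other 7 strains 186. Replicate numbers of different strains belong to different mice. The deviations of same-numbered libraries of A/J and other strains had a median correlation of 0.0053 (7 pairs, -0.228 to 0.131). In 56 pairs with other numbers the median was 0.019. So few pairs cannot show whether libraries of the same number were handled together. The replicate block called 1320. At 2-fold the osteoblast covariate left 560 genes and pooling 93. The median of the 7 single-strain counts was 815 with the muscle covariate, 1068 with the osteoblast covariate, 1237 with the replicate block and 1364 without NOD/ShiLtJ.

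Genes on the same side of all 7 strains numbered 14 with the muscle and 10 with the osteoblast covariate and 46 by DESeq2; with fewer strains to pass they numbered 61 without C57BL/6J, 38 without CAST/EiJ, 42 without PWK/PhJ, 41 without WSB/EiJ and 128 without the wild-derived strains, and genes with no overlap numbered 408 and 706 without C57BL/6J and the wild-derived strains. Osteoblast genes called lower numbered 4 without the count filter, 0 with the osteoblast covariate, the replicate block or pooling, 11 without C57BL/6J, 1 without CAST/EiJ, 2 without NOD/ShiLtJ, 2 without the wild-derived strains and 12 by DESeq2. Neutrophil genes called higher numbered 3, 8 and 0 with the osteoblast covariate, the replicate block and pooling, inflammasome genes 2 with the osteoblast covariate and 0 with pooling, and B cell genes called lower 1 with pooling. The osteoblast score used as covariate was itself lower in A/J; the cause of these shifts was not tested.

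Leaving out 1 library at a time gave 1138 to 2342 called genes, 698 to 947 at 2-fold, a median of 952 to 2992 per strain, 252 to 648 with no overlap and 18 to 29 on the same side of all 7 strains, with 2 to 15 neutrophil, 7 to 9 inflammasome, 4 to 8 B cell and 0 to 11 osteoblast genes. Pooling turned Chil3 (-0.28), Oas2 (-0.15) and H2-Ea-ps (-0.26) negative, and leaving out the wild-derived strains turned Oas2 (-0.34) and Aldh3a1 (-0.29) negative. Depth kept Tyr and Tyrp1, at 9 and 0 counts in A/J, out of the test.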

Other observations

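Gene families were picked after their values were seen and are given as values. Among all tested genes 9.22% were called higher and 4.46% lower. Of 6 paired Ig-like and leukocyte Ig-like receptors, 5 were called higher and 3 lay above all 21 other libraries. Lilrb4a, an inhibitory receptor, had 254, 348 and 209 CPM in A/J, against 17.5, 62.8 and 162 CPM as the lowest, median and highest of the others, and Pira2 had 221, 144 and 168 CPM, against 5.22, 42.0 and 104 CPM. Of 9 Schlafen genes 2 were higher and 1 lower; Slfn4 had 686, 839 and 507 CPM in A/J, against 22.5, 107 and 326 CPM, with a log2 difference of 2.66 ± 0.29. In other families of near copies members were split in direction: Trim12c had 76.1, 77.0 and 79.5 CPM in A/J, against 0, 28.7 and 56.4 CPM, while Trim30d had 0.167, 0.785 and 0.291 CPM, against 0, 5.43 and 18.7 CPM. Sirpb1a had 18.6, 22.5 and 20.5 CPM, against 0.665, 4.50 and 16.3 CPM, while Sirpb1b had 6.19, 3.27 and 3.63 CPM, against 1.89, 16.1 and 25.7 CPM. The mean of Trim30d was lower in 129S1/SvImJ than in A/J (0.338 against 0.414 CPM), and that of Sirpb1b lower in PWK/PhJ (3.04 against 4.36 CPM). Against C57BL/6J alone Lilrb4a, Slfn4 and Trim12c were not called (adjusted p = 0.273, 0.163 and 0.175, edgeR). Pira2 was not called against WSB/EiJ and Sirpb1a not against CAST/EiJ (adjusted p = 0.142 and 0.261, edgeR).

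By annotation class, 62 of 175 tested immunoglobulin and T cell receptor segments were called higher and 0 lower (35.4% called), although called B cell precursor genes were lower. Of 676 pseudogenes 130 were called higher and 32 lower (19.2% and 4.73%), and of 14105 protein-coding genes 1183 and 632 (8.39% and 4.48%). Across chromosomes the share called ran from 11.5% on chromosome 11 to 17.4% on chromosome 17. The part of read assignment against a genome of another strain was not tested.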
